A study of Arabidopsis thaliana with 36 samples.

Results

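The operon described here holds 3 of the 128 plastid genes analysed, psaA (ArthCp022), psaB (ArthCp021) and rps14 (ArthCp020), which were chosen by name. The data are chromatin immunoprecipitation sequencing (ChIP-seq) coverage of the plastid genome of Arabidopsis thaliana seedlings, 5 days old, grown in continuous light with no treatment. There were 36 libraries in 12 groups of 3 replicates, and each ChIP group had an input group of its own. In the ptac3 set, RpoB was precipitated from the ptac3 mutant and from Col-0, the wild type. In the ptac14 set, RpoB was precipitated from the ptac14 mutant and from Col-0 plants of that set. In the pTAC3 set, pTAC3 was precipitated from the ptac3 mutant and from a further Col-0 group. There the mutated gene is that of the antigen itself, and the labels do not say whether any of the protein is left. Per harvest, 50 seedlings were crosslinked in formaldehyde and homogenised together, and chloroplasts were enriched. The labels named no alleles and did not say whether replicates came from separate sowings, so p-values measure the spread between these libraries. The genes for pTAC3 and pTAC14 are nuclear and lie outside the coverage table, so the mutations themselves were not checked.

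Photosystem I takes electrons from plastocyanin and passes them to ferredoxin. psaA and psaB encode the large proteins that form its reaction centre and bind most of its cofactors, and rps14 encodes a protein of the small subunit of the plastid ribosome. In land plants these genes are transcribed together, psaA first and rps14 last, from a promoter upstream of psaA that is read by the plastid-encoded RNA polymerase (PEP). RpoB is the beta subunit of that polymerase. pTAC3 and pTAC14 are nuclear-encoded proteins that are found with PEP and are needed for normal plastid transcription. The comparisons asked where RpoB and pTAC3 lay along the operon, and what remained of that pattern in the ptac3 and ptac14 mutants.

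On the plastid genome (RefSeq annotation of TAIR10.1), psaA runs from position 41857 down to 39605 (2253 bp), psaB from 39579 to 37375 (2205 bp) and rps14 from 37240 to 36938 (303 bp). Each is a single uninterrupted protein-coding entry in that annotation. The gaps are 25 bp between psaA and psaB and 134 bp between psaB and rps14, and the operon spans 4920 bp. ycf3, which encodes a photosystem I assembly factor, lies 726 bp upstream of psaA. trnfM, the gene for the initiator tRNA, lies 160 bp beyond rps14, at 36704 to 36777. No base sequence of the operon was used here. Enrichment is the log2 ratio of ChIP to input coverage, each scaled to its library mean, after averaging in bins of 50 bp and adding 5% of the mean. A value of 0 means the same share of the library as in input, and the amount of protein bound per plastid was not measured. Mean coverage was 59.2 to 204 in mutant ChIP libraries, 113 to 1538 in Col-0 ChIP libraries and 318 to 924 in inputs. Over psaA it was 59.3 to 211 in mutant ChIP libraries, 58.9 to 780 in Col-0 ChIP libraries and 311 to 944 in inputs. The part of depth in the differences below was not tested.

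In Col-0 a narrow peak before psaA was above input, and in the mutants none of its bins was called. In each of the 3 sets the highest bin of the 300 bp before psaA was 42001 to 42050, centred 168 bp before the first base of the gene. At that bin, RpoB enrichment was 0.22, 0.12 and 0.13 in ptac3, against 1.01, 0.74 and 0.72 in Col-0 of the ptac3 set. RpoB enrichment there was 0.51, 0.10 and 0.49 in ptac14, against 0.73, 0.88 and 0.55 in Col-0 of the ptac14 set. pTAC3 enrichment there was 0.25, 0.22 and -0.01 in ptac3, against 1.37, 1.08 and 1.48 in Col-0 of the pTAC3 set. The mutant and Col-0 libraries did not overlap at this bin in any of the sets, and the share of all bins without overlap was not counted. This bin was picked as the highest one, where Col-0 was high, so these values describe the peak and are not read as a test between genotypes. It is 1 of the 6 window bins counted next. Tested over the whole window in limma with totals, 3, 0 and 5 of its 6 bins were lower in the mutants of the ptac3, the ptac14 and the pTAC3 set, where 19.1%, 17.5% and 21.2% of all bins were. In ptac14 the count at an unadjusted p under 0.05 was also 0, and in the ptac3 set it was 1 after adjustment without any 1 of the ptac3 replicates. With libraries scaled to their median bin, or to the rpoB, rpoC1 and rpoC2 bins, all 6 were lower in each set, where 33.1%, 35.1% and 35.2% or 46.5%, 55.6% and 60.6% of all bins were.

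Bins above input in Col-0 ran without a break from 41951 to 42100 (150 bp) in both RpoB sets and from 41951 to 42150 (200 bp) in the pTAC3 set. Its highest bin held 1.77, 1.65 and 2.48 times its input share in Col-0 of the ptac3, the ptac14 and the pTAC3 set. Of all bins tested, 15.6%, 17.3% and 13.8% stood above it in Col-0 of the same sets. With a running mean of 51 bp, the summit lay 175 to 192 bp before psaA in all 9 Col-0 libraries. In the 9 mutant libraries the highest point of the same search window had a median of 169 bp before psaA, against 184 bp in Col-0. For RpoB it lay at -3, 138 and 189 bp in ptac3 and at 169, 210 and 213 bp in ptac14 (negative: inside psaA). For pTAC3 ChIP in ptac3 it lay at 200, 139 and -151 bp. Mutant ChIP libraries tested against their own inputs had 0 called bins in the promoter window in each set (limma), with 0, 2 and 2 of 6 at an unadjusted p under 0.05 in the ptac3, the ptac14 and the pTAC3 set. The 2 of ptac14 were above input and the 2 of the pTAC3 set below it. In Col-0, 3, 3 and 4 of the 6 bins were above input in the same sets, where 19.9%, 19.8% and 22.7% of all bins were. The 3 bins of the ptac14 set fell to 0 without Col-0 replicate 2, and all 6 bins were above input in both RpoB sets under the other 2 scalings. Of all bins 3.01%, 0% and 0% differed between mutant ChIP and input.

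**Figure D1:**
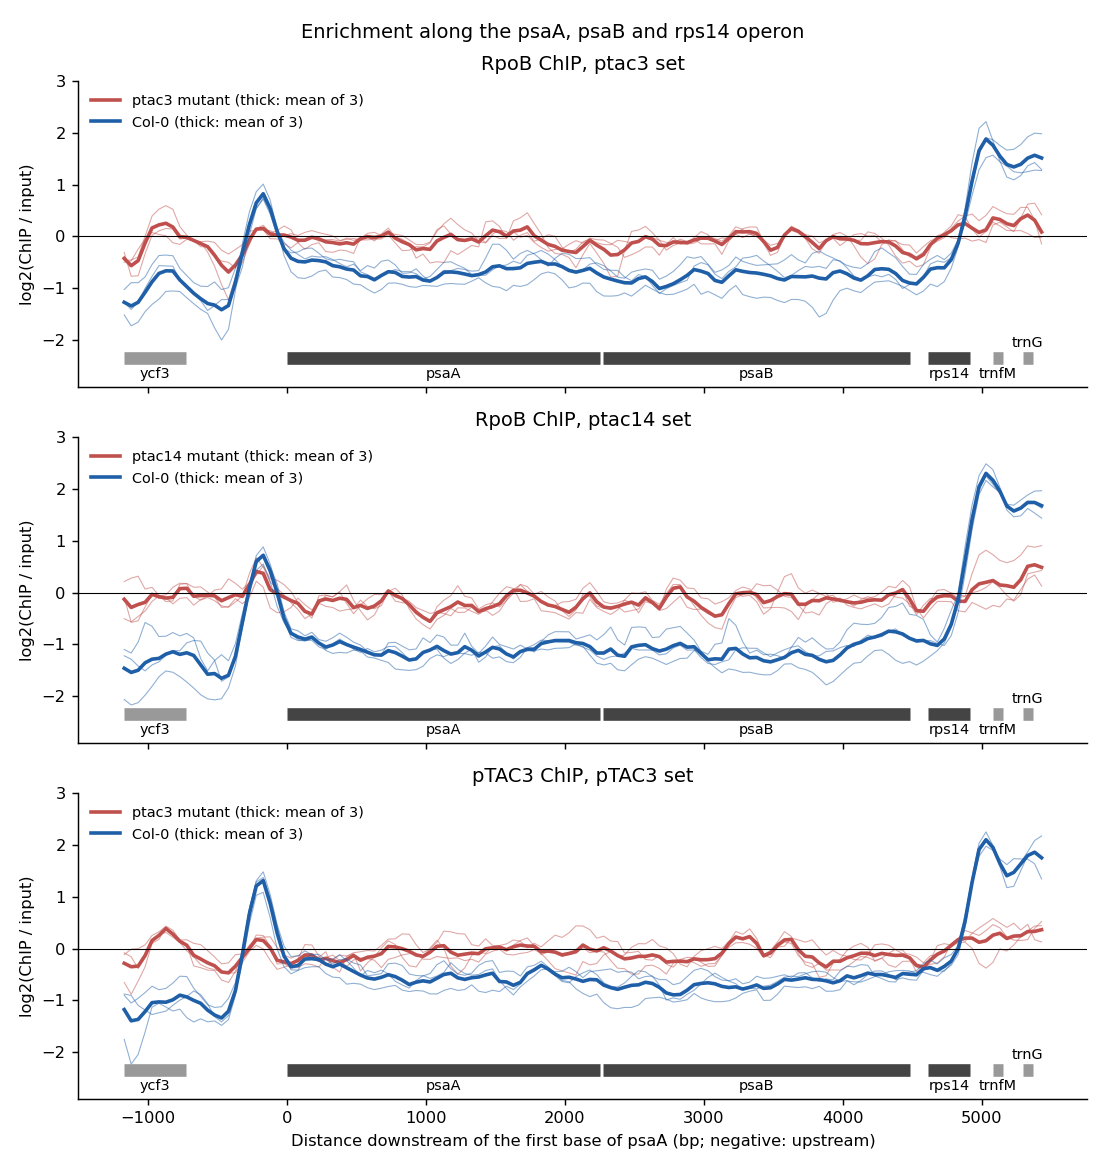
Log2 enrichment in bins of 50 bp against the distance from the first base of psaA, in bp, with mutant libraries in red and Col-0 libraries in blue (thin lines, 3 replicates; thick lines, means) and genes as bars below. Col-0 profiles rise to a summit 175 to 192 bp before psaA, stay below input over psaA and psaB with libraries scaled to totals, and rise again past rps14 towards trnfM. Mutant profiles are flatter. In the ptac3, the ptac14 and the pTAC3 set they average -0.45, -0.08 and -0.34 over the upstream flank (42158 to 42457). Over the 500 bp that hold trnfM they average 0.25, 0.31 and 0.29.

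The height of the peak over the operon was measured within each library, which makes it independent of how libraries are scaled. The promoter window, the 300 bp before psaA (41858 to 42157), was set against psaB, the gene in the middle of the operon. The window itself averaged 0.05 ± 0.06, 0.15 ± 0.24 and -0.02 ± 0.13 in the mutants of the ptac3, the ptac14 and the pTAC3 set, against 0.35 ± 0.12, 0.22 ± 0.14 and 0.70 ± 0.20 in Col-0 (log2 enrichment, SD, n = 3), and the libraries overlapped in the ptac14 set. In RpoB ChIP the window exceeded psaB by 0.18, 0.17 and 0.08 in ptac3, against 1.58, 1.02 and 0.77 in Col-0. In ptac14 the excess was 0.40, 0.02 and 0.47, against 1.13, 1.39 and 1.46 in Col-0 of the ptac14 set. In pTAC3 ChIP it was 0.01, 0.23 and 0.01 in ptac3, against 1.33, 1.32 and 1.46 in Col-0. Every mutant value lay below every Col-0 value of its set. The mutant means differed from the Col-0 means by -0.98, -1.03 and -1.28 in the ptac3, the ptac14 and the pTAC3 set (exact permutation p = 0.1 in each, the smallest that 3 against 3 libraries allow). Over the 3 sets together, with libraries exchanged only within a set, the mean difference was -1.10 (exact permutation p = 0.00025, the smallest of 8000 arrangements, adjusted p = 0.000438 over a family of 7 differences). Set against the next 300 bp upstream (42158 to 42457), the window showed the same ordering, with a mean difference between mutant and Col-0 of -1.25 (exact permutation p = 0.00025, adjusted p = 0.000438). This flank and the tests over the 3 sets were added after the profiles were seen, so their p-values do not cover that choice. Here and below, the tests over the 3 sets include the pTAC3 set, where the mutated gene is that of the antigen. No exact test over the RpoB sets alone was run.

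A small excess at the promoter window remained in the mutants. It was 0.18 ± 0.17 over psaB in the 9 mutant libraries and 1.27 ± 0.25 in the 9 Col-0 libraries (log2, SD). It was above 0 in 9 of 9 mutant libraries (exact sign-flip permutation p = 0.00391, the smallest that 9 libraries allow, adjusted p = 0.0141 over 18 differences) and in 9 of 9 Col-0 libraries (exact sign-flip permutation p = 0.00391, adjusted p = 0.00469). The mutant libraries include those of pTAC3 ChIP in ptac3, where the excess was 0.09 ± 0.13 (SD, n = 3).

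**Figure D2:**
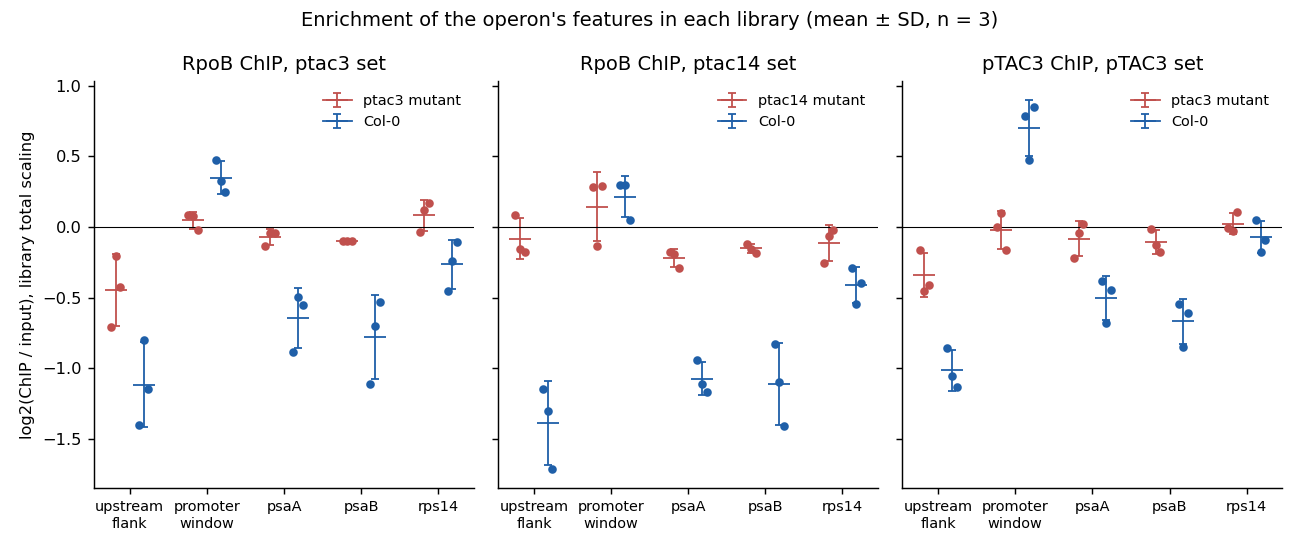
Log2 enrichment of the 300 bp upstream flank, the promoter window, psaA, psaB and rps14 in each library, with mutant libraries in red to the left of Col-0 libraries in blue, and means with SD (n = 3). With libraries scaled to totals, the promoter window is the only one of these features above 0 on average in Col-0, and psaA and psaB of the mutants lie between -0.29 and 0.02.

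Over the genes themselves, with libraries scaled to totals, Col-0 coverage was below input and mutant coverage was close to it. At psaA, RpoB enrichment was -0.14, -0.04 and -0.04 in ptac3, against -0.89, -0.49 and -0.55 in Col-0. It was -0.17, -0.19 and -0.29 in ptac14, against -0.94, -1.11 and -1.17 in Col-0 of the ptac14 set. pTAC3 enrichment at psaA was -0.22, -0.04 and 0.02 in ptac3, against -0.38, -0.68 and -0.44 in Col-0. The groups did not overlap, and with totals psaA was higher in the mutant in each set, although it was lower under both other scalings given below. Groups did not overlap at the neighbours ycf3 and trnfM in any set either. The share of all genes without overlap was not counted. The change was 0.57 in the ptac3 set (limma, SE 0.18, adjusted p = 0.0019), 0.85 in the ptac14 set (SE 0.19, adjusted p = 0.000566) and 0.42 in the pTAC3 set (SE 0.17, adjusted p = 0.0137). Of all genes, 51.6%, 54.7% and 52.3% were called higher in the mutants of these sets and 31.2%, 27.3% and 36.7% lower. In the pTAC3 set the call at psaA was lost without Col-0 replicate 2 (0.33, adjusted p = 0.112) and without ptac3 replicate 3 (0.37, adjusted p = 0.0801).

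psaB differed in the same way. RpoB enrichment at psaB was -0.10 in each of the 3 ptac3 libraries, against -1.11, -0.70 and -0.53 in Col-0. It was -0.12, -0.16 and -0.18 in ptac14, against -0.83, -1.10 and -1.41 in Col-0 of the ptac14 set. pTAC3 enrichment at psaB was -0.01, -0.13 and -0.18 in ptac3, against -0.54, -0.85 and -0.61 in Col-0. No mutant value overlapped a Col-0 value of its set, as at psaA, ycf3 and trnfM. With totals the change was 0.68 (limma, adjusted p = 0.000213), 0.96 (adjusted p = 0.000392) and 0.56 (adjusted p = 0.00101) in the ptac3, the ptac14 and the pTAC3 set, again with the opposite sign under the other scalings.

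With totals, rps14 was closer to input than psaA and psaB in Col-0. RpoB enrichment at rps14 was -0.04, 0.12 and 0.17 in ptac3, against -0.45, -0.24 and -0.10 in Col-0. It was -0.26, -0.07 and -0.02 in ptac14, against -0.29, -0.54 and -0.40 in Col-0 of the ptac14 set. pTAC3 enrichment at rps14 was -0.005, -0.03 and 0.11 in ptac3, against 0.05, -0.18 and -0.09 in Col-0. The groups overlapped in the pTAC3 set and not in the RpoB sets. With totals the change of rps14 was 0.35 (limma, adjusted p = 0.0609), 0.29 (adjusted p = 0.165) and 0.10 (adjusted p = 0.576) in the ptac3, the ptac14 and the pTAC3 set, none of them called. It was called in the ptac3 set (0.56, adjusted p = 0.0026) and the ptac14 set (0.59, adjusted p = 0.0131) when 100 bp were left out at each end of the gene.

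In Col-0, psaA and psaB were below input in each set with totals. psaA was at -0.64, -1.07 and -0.50 (limma, adjusted p = 1.9e-05, 5.8e-05 and 0.000127) and psaB at -0.78, -1.11 and -0.67 (adjusted p = 3.36e-07, 0.000213 and 3.99e-06) in the ptac3, the ptac14 and the pTAC3 set. rps14 was called below input in the ptac14 set alone (-0.41, adjusted p = 0.00715). Of all genes 55.5%, 57% and 53.9% were below input in the same sets, so this direction was that of most genes. It held only with totals: scaled to the median bin, Col-0 enrichment of psaA was 0.25, 0.27 and 0.43 and that of psaB 0.11, 0.23 and 0.26 in the same sets. In the mutants 0 of the 3 genes differed from input in any set (limma, lowest adjusted p = 0.103, at psaA in ptac14). At an unadjusted p under 0.05 the count was 1 of 3 in ptac3 (psaB), 2 of 3 in ptac14 (psaA and psaB) and 0 of 3 for pTAC3 ChIP in ptac3, all below input. Of all genes 0%, 2.34% and 0% differed from input in the mutants.

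The direction of these changes followed the scaling of the libraries. The median change of all 128 genes was 0.61, 0.87 and 0.54 with totals in the ptac3, the ptac14 and the pTAC3 set, -0.28, -0.42 and -0.38 with libraries scaled to the median bin, and -0.63, -1.03 and -0.98 with libraries scaled to rpoB, rpoC1 and rpoC2, genes read mainly by the other plastid polymerase. psaA changed by -0.31, -0.44 and -0.49 with the median bin and by -0.67, -1.05 and -1.10 with the rpo genes, all called lower. psaB changed by -0.20, -0.33 and -0.35 and by -0.56, -0.94 and -0.96, and only -0.20, in the ptac3 set, was not called (limma, adjusted p = 0.168). rps14 was called lower in every set under both, by -0.54, -0.999 and -0.82 and by -0.89, -1.61 and -1.42. With the median bin 49.2%, 52.3% and 50.8% of all genes were called lower, and with the rpo genes 69.5%, 82.8% and 82%.

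Distance to the median of all genes does not depend on the scaling. By that measure psaA and psaB changed about as much as the median of the 128 genes. Their signed change lay below that of the median protein-coding gene. The change of psaA minus the median of all genes was -0.04, -0.01 and -0.12 in the ptac3, the ptac14 and the pTAC3 set, and that of psaB was 0.07, 0.09 and 0.02. For rps14 it was -0.26, -0.57 and -0.44. The median change of protein-coding genes was 0.86, 1.29 and 0.91 with totals, above those of psaA and psaB in each set. With the median bin it was -0.02, -0.005 and -0.004, and with the rpo genes -0.38, -0.61 and -0.61, again above both. So psaA and psaB rose less than the median protein-coding gene with totals and fell further under the other scalings. Among the 79 protein-coding genes with the inverted repeat counted once, the change of rps14 ranked 63, 72 and 71 from the highest. psaA ranked 60, 60 and 61 and psaB 55, 57 and 59. These ranks describe the libraries and were not tested.

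**Figure D3:**
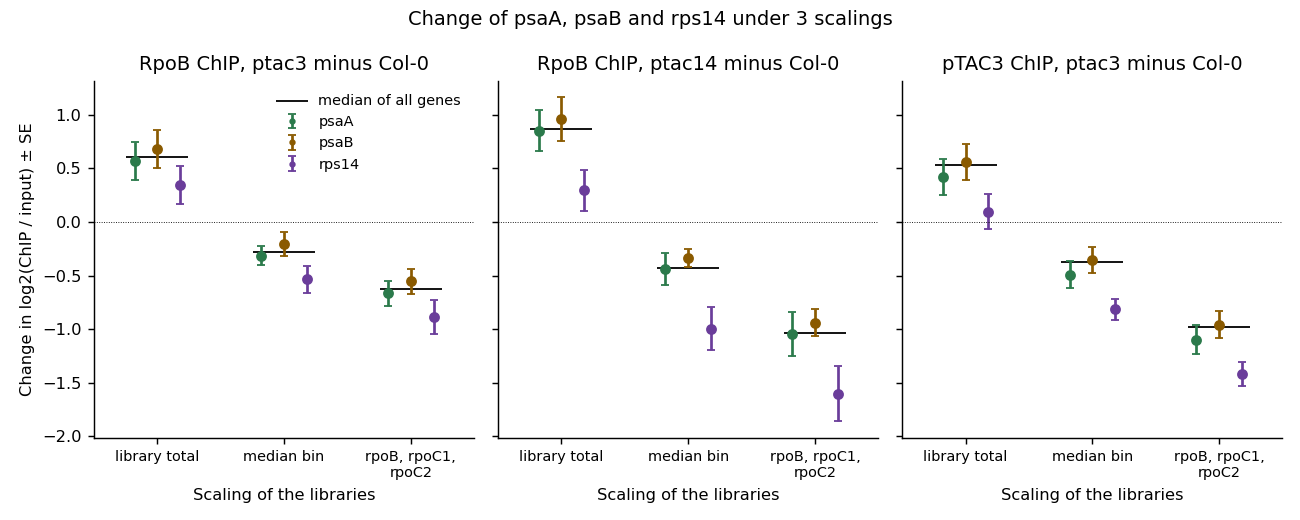
Change in log2 enrichment, mutant minus Col-0, with SE from limma, of psaA, psaB and rps14 when libraries are scaled to their total, their median bin or the rpoB, rpoC1 and rpoC2 bins. Horizontal bars mark the median of all 128 genes; psaA and psaB stay within 0.12 of it and rps14 minus that median is -0.26, -0.57 and -0.44.

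The slope of coverage along the operon was not found to differ between mutants and Col-0, and was not tested against 0. With totals, in Col-0 45, 45 and 42 of the 45 bins of psaA and all 45 bins of psaB were below input in the ptac3, the ptac14 and the pTAC3 set, where 70.7%, 71% and 69.9% of all bins were. The slope of enrichment from the start of psaA to the end of rps14 was -0.003 ± 0.010 per kb in ptac3 and -0.007 ± 0.038 in Col-0 of the ptac3 set (log2, SD, n = 3). It was 0.025 ± 0.014 in ptac14 and 0.043 ± 0.048 in Col-0 of the ptac14 set. For pTAC3 ChIP it was 0.005 ± 0.048 in ptac3 and -0.005 ± 0.024 in Col-0. Over the 3 sets the slopes of mutants and Col-0 differed by -0.001 (exact permutation p = 0.947). With totals, 80, 90 and 67 of the 96 bins in the 3 genes changed in the mutants, all of them higher except 1 lower bin in rps14 of the ptac14 set. Of all bins 66.8%, 69.4% and 66.6% were higher. In the pTAC3 set the 67 higher bins became 26 without Col-0 replicate 2 and 40 without ptac3 replicate 3. With the median bin 18, 41 and 49 of the 96 bins were lower and none higher, where 33.1%, 35.1% and 35.2% of all bins were lower. With the rpo genes 84, 95 and 96 were lower and none higher, where 46.5%, 55.6% and 60.6% of all bins were lower.

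Within the genes the step from psaA to psaB was small. The first 500 bp of psaA were at -0.08, -0.21 and -0.21 in the mutants of the ptac3, the ptac14 and the pTAC3 set, against -0.52, -0.94 and -0.30 in Col-0. The next 500 bp were at -0.07, -0.22 and -0.09 in the mutants, against -0.76, -1.19 and -0.58 in Col-0. psaA as a whole exceeded psaB by -0.01 ± 0.12 in the 9 mutant libraries and by 0.11 ± 0.13 in the 9 Col-0 libraries (log2, SD). The difference was above 0 in 4 of 9 mutant libraries (exact sign-flip permutation p = 0.891) and in 6 of 9 Col-0 libraries (exact sign-flip permutation p = 0.0312, adjusted p = 0.0352). The direct comparison of mutants with Col-0 gave -0.12 (exact permutation p = 0.0528, adjusted p = 0.0615). Over 8 alternatives its exact permutation p ran from 0.03 to 0.058, and 7 of the 8 also stayed above 0.05. Mutant and Col-0 libraries overlapped in all 3 sets.

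psaA also stood above the flank upstream of its promoter in Col-0. It exceeded the flank (42158 to 42457) by 0.43 ± 0.17 in Col-0, above 0 in 9 of 9 libraries (exact sign-flip permutation p = 0.00391, adjusted p = 0.00469). In the mutants the difference was 0.17 ± 0.29 and above 0 in 5 of 9 libraries (exact sign-flip permutation p = 0.133, adjusted p = 0.184). Mutants and Col-0 differed by -0.27 over the 3 sets (exact permutation p = 0.0112, adjusted p = 0.0158), which was lost with a pseudocount of 25% of the mean (-0.14, exact permutation p = 0.0548). The difference was -0.10, -0.45 and -0.25 in the ptac3, the ptac14 and the pTAC3 set, and the groups were apart only in the ptac14 set. The flank was added after the profiles were seen, so the p-values above do not cover that choice. This flank was itself below input in ptac3, at -0.71, -0.20 and -0.43 in RpoB ChIP and at -0.16, -0.45 and -0.41 in pTAC3 ChIP, against 0.09, -0.15 and -0.18 in ptac14.

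**Figure D4:**
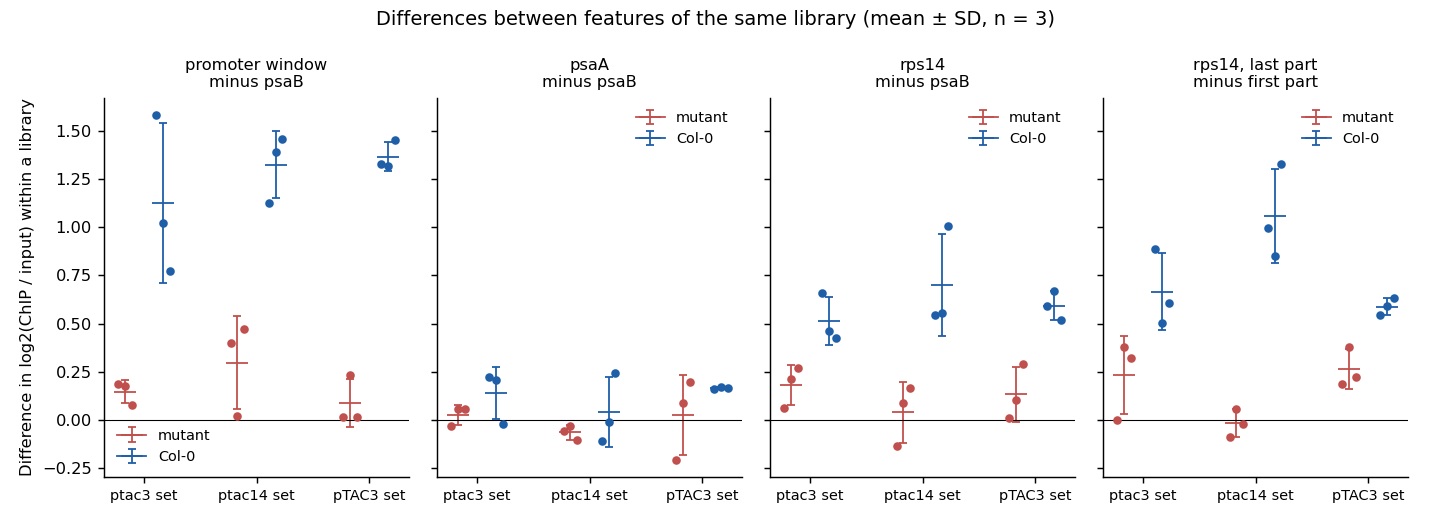
Differences in log2 enrichment between features of the same library, with mutant libraries in red to the left of Col-0 libraries in blue, and means with SD (n = 3). The excess of the promoter window over psaB, of rps14 over psaB and of the last part of rps14 over its first part is higher in every Col-0 library than in any mutant library of its set, while psaA minus psaB overlaps in all 3 sets.

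rps14 was not covered evenly along its length. It exceeded psaB by 0.18, 0.04 and 0.13 in the mutants of the ptac3, the ptac14 and the pTAC3 set, against 0.51, 0.70 and 0.59 in Col-0, with no overlap in any set (mean difference -0.49, exact permutation p = 0.00025, adjusted p = 0.000438). In Col-0 the excess was larger in the last part of the gene than in the first part, which also lay above psaB on average. psaB averaged -0.78, -1.11 and -0.67 in Col-0 of the same sets. In ptac14 the last part was not above the first on average. From 37090 to 36938, enrichment was 0.20, -0.12 and 0.15 in the mutants, against 0.06, 0.12 and 0.22 in Col-0. From 37240 to 37091, the first part, it was -0.03, -0.10 and -0.11 in the mutants, against -0.60, -0.94 and -0.37 in Col-0. The last part exceeded the first by 0.16 ± 0.18 in mutants and 0.77 ± 0.27 in Col-0 (SD, 9 libraries each), a difference of -0.61 over the 3 sets (exact permutation p = 0.00025, adjusted p = 0.000438). The parts and the tests over the 3 sets were added after the profiles were seen, so these p-values do not cover that choice.

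trnfM, the next gene on that side, was among the enriched features. RpoB enrichment at trnfM was 0.26, 0.53 and 0.23 in ptac3, against 1.80, 1.49 and 1.60 in Col-0. It was -0.27, 0.14 and 0.66 in ptac14, against 1.98, 1.97 and 2.15 in Col-0 of the ptac14 set. pTAC3 enrichment at trnfM was -0.10, 0.52 and 0.42 in ptac3, against 1.73, 1.75 and 1.79 in Col-0. It fell by 1.29, 1.86 and 1.47 with totals (limma, adjusted p = 1.08e-11, 5.56e-06 and 7.77e-17) and was lower under both other scalings. Coverage in bins of 50 bp cannot tell reads of fragments centred on trnfM from reads of fragments centred on the end of rps14, and their part in the value of rps14 was not tested. The stretch of 500 bp that holds rps14 was at -0.02, -0.13 and -0.03 in the mutants, against -0.13, -0.19 and 0.11 in Col-0. The next 500 bp hold trnfM and a further tRNA gene, trnG (36490 to 36560). They were at 0.25, 0.31 and 0.29 in the mutants, against 1.51, 1.80 and 1.71 in Col-0.

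On the other side, ycf3 was near input in the mutants. Its enrichment averaged -0.03, -0.005 and -0.05 in the mutants of the ptac3, the ptac14 and the pTAC3 set, against -0.95, -1.31 and -0.93 in Col-0. The change was 0.91, 1.30 and 0.89 with totals (limma, adjusted p = 8.26e-07, 6.32e-05 and 2.58e-07), near 0 and not called with the median bin, and -0.32, -0.60 and -0.63 with the rpo genes.

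The plastid genome holds 5 genes of photosystem I subunits, and psaB had the median change among them in each set. psaC, for the subunit that carries the terminal iron-sulfur clusters, averaged 0.19, 0.12 and 0.10 in the mutants, against -1.06, -1.58 and -1.17 in Col-0. psaI, for a small membrane subunit, averaged -0.12, 0.44 and 0.09 in the mutants, against -0.95, -1.26 and -1.03 in Col-0. psaJ, for another small membrane subunit, averaged 0.02, 0.17 and -0.01 in the mutants, against -0.21, -0.13 and -0.01 in Col-0. With totals 4 of the 5 were called higher in each set, where 51.6%, 54.7% and 52.3% of all genes were, and psaJ was not called. The median change of the list was 0.68, 0.96 and 0.56, against 0.61, 0.87 and 0.54 for all genes. With the median bin 1 was higher and 2, 3 and 3 were lower in the ptac3, the ptac14 and the pTAC3 set, and with the rpo genes 0 were higher and 3 were lower in each set. Of all genes 49.2%, 52.3% and 50.8% were lower with the median bin and 69.5%, 82.8% and 82% with the rpo genes. psaC was the higher gene in each set, at 0.36, 0.40 and 0.35 (limma, adjusted p = 0.0207, 0.00863 and 0.0237), where 10.9%, 21.1% and 18% of all genes were higher.

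The shares of all genes called under each scaling are those just given for photosystem I. The assembly factor genes ycf3 and ycf4 were both higher with totals in each set, with median changes of 0.92, 1.24 and 0.93. With the median bin 0 of the 2 were called, and with the rpo genes both were lower in each set. Of the 12 genes for proteins of the small ribosomal subunit, 11 were higher with totals in each set (51.6%, 54.7% and 52.3% of all genes were), with median changes of 1.02, 1.55 and 1.22, and rps14 was the 1 that was not called. Its Col-0 enrichment was also the highest of the 12 in each set. With the median bin 4, 6 and 7 of the 12 were higher and 1, 1 and 2 lower in the ptac3, the ptac14 and the pTAC3 set, where 10.9%, 21.1% and 18% of all genes were higher. With the rpo genes 0 of the 12 were higher and 4, 6 and 6 were lower, rps14 the furthest down in each set. Of 4 photosystem II core genes (psbA, psbB, psbC and psbD), 2, 2 and 1 were higher and 1 was lower in each set with totals, where 31.2%, 27.3% and 36.7% of all genes were lower. With the median bin 0 were higher and 3 lower, and with the rpo genes 4 were lower.

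Set beside other genes of the same library, psaA lay between the strongly and the weakly covered genes of Col-0. It differed from psbA, for the D1 protein of photosystem II, by -0.14 ± 0.20 in the 9 mutant libraries and by -1.93 ± 0.43 in the 9 Col-0 libraries. Against rbcL, for the large subunit of Rubisco, psaA differed by -0.05 ± 0.11 in mutants and by -1.06 ± 0.25 in Col-0. Against psbD and psbC, for the D2 protein and the CP43 antenna protein, it differed by -0.16 ± 0.08 and 0.01 ± 0.08 in mutants and by -0.41 ± 0.15 and -0.38 ± 0.18 in Col-0. Each of these Col-0 differences was below 0 in 9 of 9 libraries (exact sign-flip permutation p = 0.00391, adjusted p = 0.00469). In the mutants, psaA was below psbD in 9 of 9 libraries (exact sign-flip permutation p = 0.00391, adjusted p = 0.0141). Its mutant differences from psbA, rbcL and psbC were not called. psaA was above rpoB by 0.85 ± 0.27 in Col-0, in 9 of 9 libraries, and at -0.07 ± 0.11 in mutants, above 0 in 3 of 9.

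The nearest of these comparators was psbB, for the CP47 antenna protein. psaA differed from psbB by -0.11 ± 0.11 in mutants, above 0 in 2 of 9 (exact sign-flip permutation p = 0.0156, adjusted p = 0.0469). In Col-0 it differed by 0.10 ± 0.13, above 0 in 8 of 9 libraries (exact sign-flip permutation p = 0.043, adjusted p = 0.0455). That call was lost under 3 of 8 alternatives, over which p ran from 0.0391 to 0.0977. psaB differed from psbB by -0.11 ± 0.08 in mutants, below 0 in 9 of 9 (exact sign-flip permutation p = 0.00391, adjusted p = 0.0141), and by -0.01 ± 0.14 in Col-0 (exact sign-flip permutation p = 0.824). The Col-0 differences of psaB ran from -0.19 to 0.14. The differences of psaB from the other 5 comparators had the signs of those of psaA in Col-0. In the mutants psaB was below psbD in 9 of 9 libraries (exact sign-flip permutation p = 0.00391, adjusted p = 0.0141).

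**Figure D5:**
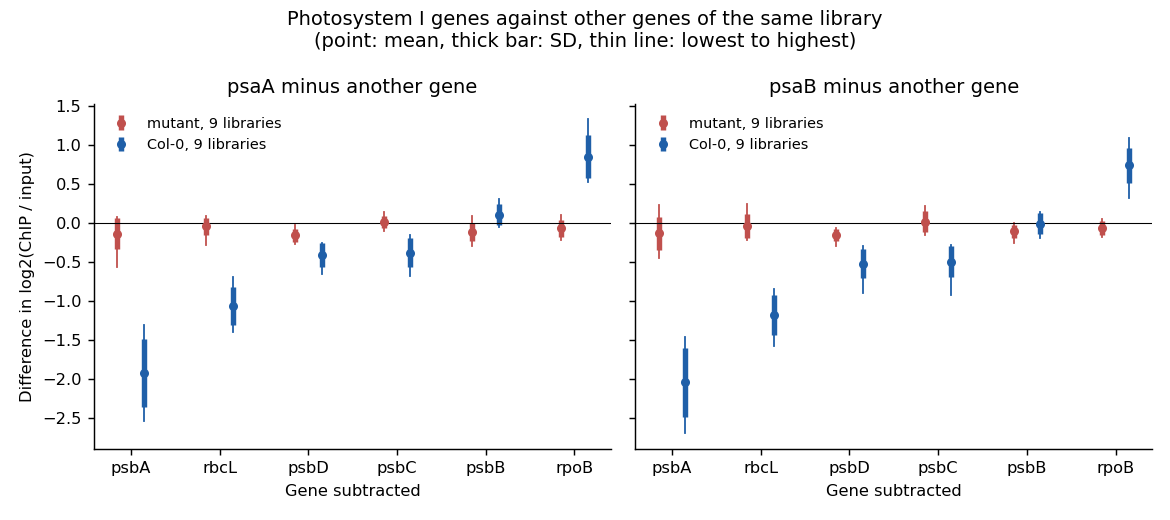
Differences in log2 enrichment between psaA (left) or psaB (right) and 6 other genes of the same library, with 9 mutant libraries in red to the left of 9 Col-0 libraries in blue; points are means, thick bars SD and thin lines the range. Mean mutant differences lie between -0.16 and 0.02, while mean Col-0 differences reach -2.04 against psbA and 0.85 against rpoB.

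Across all 18 ChIP libraries, the genes closest to each member were found by the root mean square difference in enrichment among 112 other genes. psaA was closest to psaB (0.141), psbE (0.156) and psbB (0.16), where the median gene was at 0.480. psaB was closest to psbB (0.133), psaA (0.141) and psbE (0.16), with a median of 0.458. rps14 was closest to psbD (0.111), psbC (0.151) and psbZ (0.189), which carry the locus tags just before its own, with a median gene at 0.71, and psaA and psaB were at rank 15 and 23 for it. In Col-0, enrichment of rps14 ranked 13, 13 and 9 among the 79 protein-coding genes in the ptac3, the ptac14 and the pTAC3 set, psaA 20, 24 and 19, and psaB 29, 29 and 23. The median protein-coding gene was at -0.89, -1.26 and -0.92 in the same sets.

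The antigens were compared in Col-0, with pTAC3 in 3 libraries and RpoB in 6. The pTAC3 libraries all came from the pTAC3 set and the RpoB libraries from the ptac3 and ptac14 sets. Antigen and set therefore cannot be told apart, and the exact tests exchanged libraries across sets. The promoter window had a pTAC3 enrichment of 0.70 ± 0.20 and an RpoB enrichment of 0.28 ± 0.14 (SD, n = 3 and 6). That difference had an exact permutation p = 0.0238 and an adjusted p = 0.0952 over 4 summaries, and did not pass. The window exceeded psaB by 1.37 ± 0.08 in pTAC3 ChIP and by 1.23 ± 0.30 in RpoB ChIP (exact permutation p = 0.476). In limma 0 of the 3 genes, 0 of the 6 bins of the window and 0 of the 96 bins of the genes differed between the antigens, with 1 gene (psaA), 3 bins and 15 bins at an unadjusted p under 0.05. Of all genes and bins 0% were called, with 5 genes and 47 bins unadjusted.

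The changes in ptac14 and ptac3 under RpoB ChIP were also tested against each other. The change in ptac14 minus the change in ptac3 was 0.28 at psaA (limma, SE 0.22, adjusted p = 0.355), 0.28 at psaB (SE 0.25, adjusted p = 0.433) and -0.05 at rps14 (SE 0.22, adjusted p = 0.835). 0 of all 128 genes were called, with 19 unadjusted, so neither mutant was shown to differ from the other at the operon. The sign at psaA and psaB depended on the scaling, and that at rps14 did not. With the median bin the values were -0.13, -0.13 and -0.46 for psaA, psaB and rps14. With the rpo genes they were -0.38, -0.38 and -0.72, and none was called under either scaling.

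No difference between inputs was called at the operon. Input coverage in mutant against Col-0 differed by 0.04, 0.03 and 0.04 at psaA, by 0.01, 0.03 and 0.01 at psaB and by 0.04, -0.01 and -0.02 at rps14 in the ptac3, the ptac14 and the pTAC3 set (limma, lowest adjusted p = 0.452). Of the 96 bins in the genes 0 were called, with 2, 3 and 0 at an unadjusted p under 0.05. Of all genes 0%, 9.38% and 0.781% were called.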

How the data were processed

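The authors deposited whole-number coverage (a signal track, entered as other) at 154477 plastid positions in 36 libraries. Per the submitters' processing notes, Trim Galore 0.4.1, Bowtie2 2.2.8.9, bedtools 2.25.0 and the TAIR10 build were used. Treatment of duplicates and of inverted repeat reads is not given in the sources used here. Gene positions came from RefSeq (TAIR10.1). Their fit to the coverage was checked on the 15 mirrored gene pairs of the inverted repeat, which matched best unshifted in 36 of 36 libraries.

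Enrichment used the input of the same group and replicate number. Bins under 10% of the median input were left out, 0 of them at the operon. Tests used limma 3.58.1 in R 4.3.3 over all genes or bins, two-sided, with Benjamini-Hochberg adjusted p under 0.05. In the ptac3 and pTAC3 sets limma gave every gene the same SE for the change (0.179 and 0.167), so those adjusted p use 1 spread for all genes. limma was checked on simulated data, for genes and for bins. Single differences used two-sided exact permutation tests. Counting error alone does not set the precision, since reads are not independent molecules. Of 36 replicate pairs 0 were identical, and the closest pair had a chi-square of 1.15 per degree of freedom.

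Same-numbered mutant and Col-0 libraries deviated together in the ptac14 set, where their 3 correlations were 0.46, 0.28 and 0.71, a hint from the data and not from the labels. ptac14 replicate 2 correlated more with Col-0 replicate 1 (0.49) than with Col-0 replicate 2, so the numbers did not pair it best. Same-numbered libraries did not deviate together in the ptac3 set (-0.39, -0.20 and 0.02) or the pTAC3 set (0.39, -0.25 and -0.05). Groups came from sample titles, because a genotype tag read wild type for mutants too. The genes, lists and windows were chosen with earlier results of these data known. Named were the members, their neighbours, the lists and the 3 genes nearest to each member by root mean square difference. The upstream flank, the parts of rps14, the tests over several sets, the antigen summaries and the mutant tests against input were added after the profiles were seen. Alternatives covered scaling, pseudocount, low-input filter, inputs, trimming, ratio of means, shared fit, replicate block and single libraries left out.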

Additional observations from a re-analysis of the deposited data

How the results depend on the processing

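The number of libraries limits these results, since 3 against 3 cannot pass an exact test within 1 set. Within-library differences do not depend on the scaling. The difference of the promoter window over psaB kept its sign under every alternative run, with single libraries left out giving -1.16 to -0.75, -1.13 to -0.89 and -1.36 to -1.24 in the ptac3, the ptac14 and the pTAC3 set.

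Scaling turned directions round. With libraries scaled to the median bin, Col-0 enrichment was 0.25, 0.27 and 0.43 for psaA, 0.11, 0.23 and 0.26 for psaB and 0.63, 0.93 and 0.86 for rps14 in the 3 sets. Scaled to rpoB, rpoC1 and rpoC2 it was 0.63, 0.89 and 1.01, then 0.49, 0.85 and 0.85, and 1.01, 1.55 and 1.44 for the same genes. The change in the mutants was -0.31, -0.44 and -0.49 for psaA, -0.20, -0.33 and -0.35 for psaB and -0.54, -0.999 and -0.82 for rps14 with the median bin. With the rpo genes it was -0.67, -1.05 and -1.10, then -0.56, -0.94 and -0.96, and -0.89, -1.61 and -1.42.

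The calls at rps14 moved with other choices. Its Col-0 enrichment was called with all groups fitted together (-0.26, ptac3 set) and with 100 bp left out at each end (-0.47, ptac3 set, and -0.25, pTAC3 set), and not called as a ratio of mean coverage (-0.20, ptac14 set). Its change was called with all groups fitted together (0.35 and 0.29, ptac3 and ptac14 sets), with the mean input of the group (0.35, ptac3 set) and with the ends left out (0.56 and 0.59, ptac3 and ptac14 sets). With single libraries left out its Col-0 enrichment ran over -0.34 to -0.17, -0.47 to -0.34 and -0.13 to -0.02 in the 3 sets, and the change of psaA in the pTAC3 set over 0.33 to 0.49.

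Counts of bins moved with the scaling. In Col-0, 6 window bins were above input under both other scalings in the RpoB sets, and 0 below. Over the 3 genes 18, 29 and 68 bins were above input with the median bin, 85, 96 and 96 with the rpo genes, and 0 below under both. In the mutants 6 window bins were lower in the ptac3 set, 0 bins of the genes were higher, and 41 and 95 were lower in the ptac14 set. With single libraries left out, the Col-0 window bins above input in the ptac14 set were 0 to 3, those below 0 to 1, and Col-0 bins of the genes above input 0 to 1 in both RpoB sets. The window bins lower in ptac3 were 1 to 3, with 1 without any of the ptac3 replicates. The bins of the genes lower in ptac14 were 0 to 1, and those higher in the pTAC3 set 26 to 65.

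The slopes were near 0 and changed sign. Their difference between mutant and Col-0 was -0.024 and -0.049 per kb in the ptac3 and pTAC3 sets without the first 500 bp, and -0.0080 to 0.026, -0.043 to 0.0049 and -0.017 to 0.030 in the 3 sets with single libraries left out. The cause of these moves was not tested. A fit with the replicate number as a block changed no call of the 3 genes, with a change of 0.57 at psaA in the ptac3 set (limma, adjusted p = 0.0117). In the ptac14 set, the only one where all same-numbered libraries deviated together, the blocked change was 0.85 at psaA (limma, adjusted p = 4.19e-06), 0.96 at psaB (adjusted p = 2.61e-07) and 0.29 at rps14 (adjusted p = 0.11). In that set the blocked fit gave the 3 genes the same SE (0.179), against 0.19, 0.21 and 0.19 without a block. These adjusted p therefore use 1 spread for the 3 genes, so their size is not a measure of the pairing. Blocking moved the ptac14 set's Col-0 window bins above input to 2, and none of the counts of bins computed with a block there by over 1.5 times.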
